A study of Mus musculus with 12 samples.

Results

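The data described here are the levels of 10 genes that report on Notch and Wnt signalling, found by mouse symbol among the 54838 genes counted in every library. They are the receptors Notch1 and Notch2, the ligands Jag1 and Dll1, the Notch target genes Hes1, Hes5 and Hey1, and on the Wnt side Axin2, Apcdd1 and Lef1. They were chosen by name for their place in the pathways, with earlier results of these data known. RNA was sequenced from the spinal cord of mice at P60, in 4 groups of 3 libraries each, and the question was how gene expression responded to demyelination with and without Tet1 in the oligodendrocyte lineage. Control mice were Olig1+/+;Tet1fl/fl and mutant mice were Olig1cre/+;Tet1fl/fl, so that both carried the floxed Tet1 alleles and differed in the Cre inserted at the Olig1 locus, which also leaves the mutant with 1 intact Olig1 allele. Each genotype was sampled in the lesion at 4 days after injection of lysolecithin (4dpl), a lipid that strips myelin, and in unlesioned tissue of the opposite side. Cells were passed over a Percoll gradient, which enriches oligodendroglia without sorting them. Mice of either sex were used.

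Notch receptors sit on the cell surface and are cut after a neighbouring cell presents a ligand of the Jagged or Delta family. The freed intracellular part moves to the nucleus, binds the DNA-binding protein RBPJ and turns on Hes and Hey genes, repressors that hold precursors back from differentiation. Secreted Wnt proteins bind Frizzled and LRP receptors, which stabilises beta-catenin and lets it act with TCF and LEF factors on genes such as Axin2, a feedback inhibitor. In oligodendrocyte precursors both pathways are known as brakes on differentiation, and in the vessel wall, astrocytes, ependyma and immune cells the same genes have other roles.

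Of the 10 genes, Dll1 was the single one that passed the test after lesion, in the control, where its fitted level was 3.44-fold higher at 4dpl. Levels are given as CPM, counts scaled to a library of standard size after TMM normalization, unless a length scale is named. A gene was called at an edgeR quasi-likelihood p-value under 0.01 and a Benjamini-Hochberg adjusted p-value under 0.05 over the 31109 genes tested, and all 10 genes were among these. In the control 1 of 10 was called higher at 4dpl and 0 were called lower, while of all genes tested 5.12% were called higher and 5.01% lower. In the mutant 0 of 10 were called, against backgrounds of 0.0225% higher and 0.113% lower. Averaged over genotypes 1 of 10 was called higher and 0 lower, against 14.2% and 18.6%. In the mutant, Jag1 and Hes5 had an unadjusted p-value under 0.05 in edgeR, DESeq2 called 0 of 10, where it called 4.28% of all genes higher and 12.7% lower. By limma with voom and sample weights 1 of 10 was called, Jag1, higher at 4dpl, where 11.2% of all genes were called higher and 10.6% lower. The median log2 fold change of the 10 genes was -0.23 in the control, 0.09 in the mutant and -0.01 averaged, where the medians of all genes were -0.36, -0.18 and -0.28. With RLE size factors in place of TMM the medians of all genes moved to -0.42, -0.32 and -0.38, and small changes are to be read against that shift. Whether the 12 libraries come from 12 different mice is not given in the sources used here, so the tests measure the spread between these libraries.

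**Figure D1:**
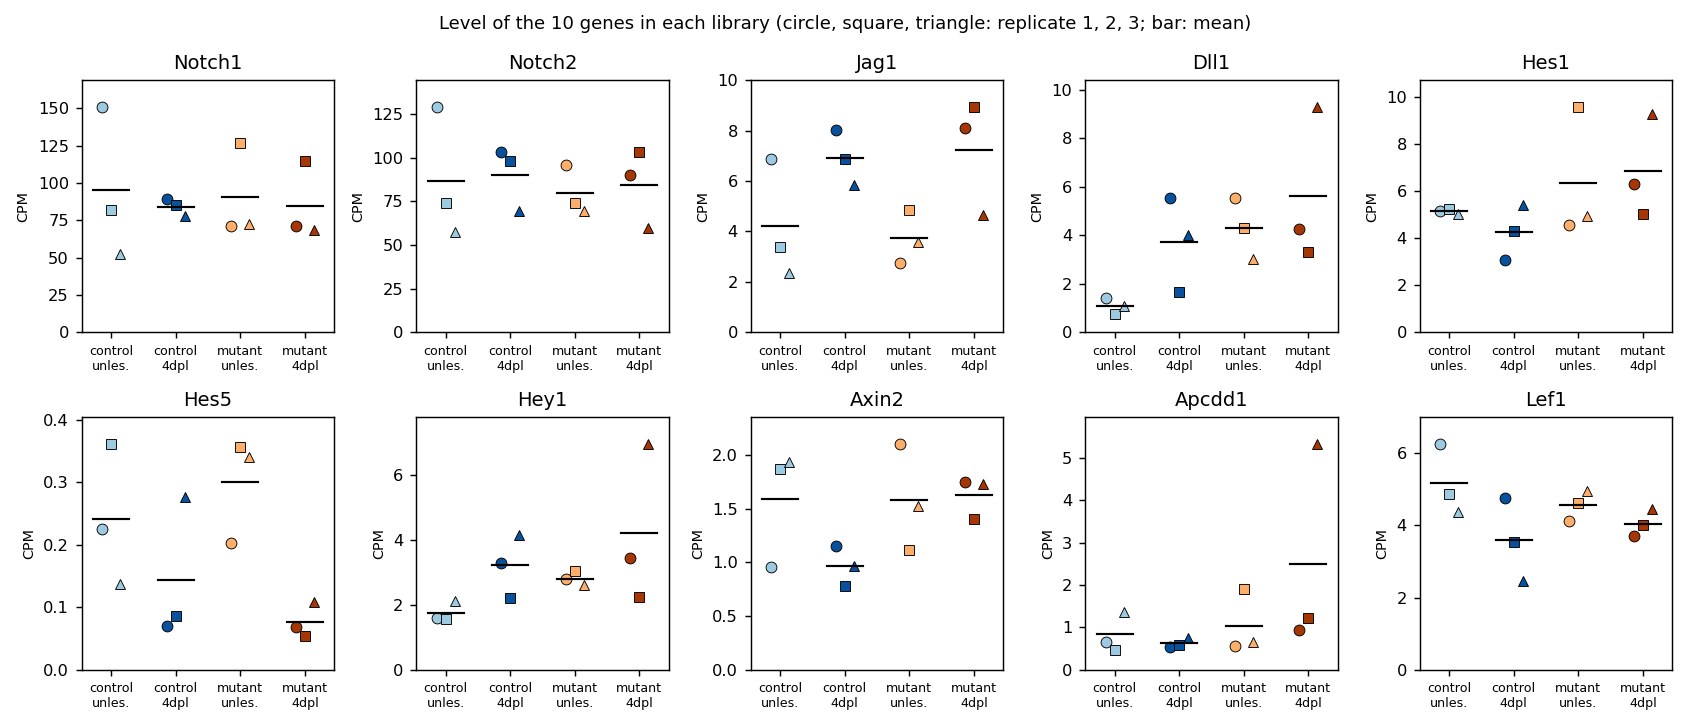
Level in CPM (linear axes from 0, one panel per gene) of the 10 genes in the 12 libraries, by group. Symbols mark replicates 1, 2 and 3 and bars the group means. The 3 control unlesioned libraries lie below all others for Dll1, and the third mutant library at 4dpl stands apart for Apcdd1 at 5.32.

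Total counts were between 34805086 and 67251544 per library. Notch1 rested on 2703 to 8044 counts per library and Notch2 on 2929 to 6868, whereas Jag1 (121 to 458), Hes1 (176 to 517), Hey1 (74 to 386) and Lef1 (107 to 333) had fewer, and the counts of the others are given with their levels. Tet1, the targeted gene, was at 14.9 to 18.3 CPM in the control unlesioned libraries and 9.94 to 16.4 in the mutant ones, and at 11.7 to 12.5 and 10.9 to 21.5 CPM at 4dpl, with edgeR adjusted p-values of 1 and 0.905. Only part of the gene is floxed and the count covers all of it and all cells, so that this value does not check the genotype, which is taken from the labels. The preparation held oligodendrocyte markers at a summed 14820 to 70777 CPM over 8 genes and microglia and macrophage markers at 13924 to 33412 CPM over 9 genes, while the 5 progenitor markers summed to 58.5 to 318 CPM. Markers of astrocytes (192 to 613 CPM), ependyma (27.0 to 232 CPM), endothelium (26.1 to 48.7 CPM), mural cells (12.3 to 37.7 CPM), fibroblasts (13.1 to 115 CPM), neurons (34.4 to 84.5 CPM) and lymphocytes (198 to 574 CPM) were also counted, and no listed marker was at 0 in any library. On the leading principal component the first control unlesioned library, at -5.59, was nearest to the 4dpl libraries, which reached 72.1, the other unlesioned libraries lying between -77.9 and -40.4. In such mixed tissue, fewer cells of a type and less RNA per cell cannot be told apart.

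Notch1, on chromosome 2 of GRCm38 from 26457903 to 26516663, and Notch2, on chromosome 3 from 98013527 to 98150361, are the receptors, and they were the members with the highest levels per length. In the control Notch1 was at 151, 82.0 and 52.8 CPM unlesioned and 89.3, 85.1 and 77.7 CPM at 4dpl. In the mutant it was at 71.5, 127 and 72.6 CPM unlesioned and 70.9, 115 and 68.5 CPM at 4dpl. The control libraries at 4dpl lay close together inside the wide range of the unlesioned ones, and 1 mutant library of each condition was high. For Notch1 the log2 fold change after lesion was -0.18 (standard error 0.35) in control tissue and -0.09 (standard error 0.35) in the mutant. Both signs rest on single libraries, since without the first control unlesioned library the control value was 0.32 and without the second mutant unlesioned library the mutant value was 0.24. Notch2 was at 129, 73.9 and 57.2 CPM in the control unlesioned libraries and 103, 98.0 and 69.4 CPM at 4dpl. In the mutant Notch2 was at 95.5, 74.0 and 69.5 CPM unlesioned and 89.8, 103 and 59.9 CPM at 4dpl. All 4 ranges of Notch2 overlapped, with log2 fold changes after lesion of 0.05 (standard error 0.31) in control tissue and 0.08 (standard error 0.31) in the mutant, and averaged over genotypes 0.07 with TMM and -0.03 with RLE size factors. The exons of Notch1 share 1068 bases with 0610009E02Rik on the other strand, which had at most 57 counts, and those of Notch2 share 541 bases with Gm42820 on the same strand, which had 57 to 202 counts.

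Dll1 encodes a Delta ligand that activates Notch on the neighbouring cell, and lies on chromosome 17 from 15367354 to 15376872 on the minus strand. Control libraries had it at 1.41, 0.765 and 1.07 CPM unlesioned and 5.54, 1.66 and 4.01 CPM at 4dpl, from 36 to 317 counts. In the mutant it was at 5.55, 4.29 and 3.03 CPM unlesioned and 4.27, 3.33 and 9.30 CPM at 4dpl, from 124 to 517 counts. The control unlesioned libraries were the 3 lowest of the 12, and the mutant unlesioned libraries reached from inside the control lesion range to just above it. Dll1 rose in the control lesion from a mean of 1.08 ± 0.322 CPM (SD, n = 3) to 3.74 ± 1.95 CPM (SD, n = 3), a log2 fold change of 1.78 (standard error 0.50, edgeR adjusted p = 0.0428). In the mutant the means were 4.29 ± 1.26 CPM (SD, n = 3) unlesioned and 5.63 ± 3.21 CPM (SD, n = 3) at 4dpl, with a log2 fold change of 0.39 (standard error 0.48, edgeR adjusted p = 0.565) that was -0.18 without the third library at 4dpl. Averaged over genotypes the log2 fold change of Dll1 was 1.09 (standard error 0.34, edgeR adjusted p = 0.0236), and this call was not made with RLE size factors (adjusted p = 0.0326), with voom (1.03, adjusted p = 0.0245), among genes with at least 10 counts in every library (0.81, adjusted p = 0.0977) or with the replicate block by study number (1.06, adjusted p = 0.115). It was also lost without any 1 of 7 libraries, with log2 fold changes of 0.80 to 1.09. The control call was near its threshold and was made by DESeq2 and voom as well. It was not made among genes with at least 10 counts in every library (1.53, adjusted p = 0.0665), in a fit to only the groups compared (1.77, adjusted p = 0.0629) or with the replicate block by study number (1.74, adjusted p = 0.128), a number for which no source used here says that it marks 1 mouse. Nor was it made in any fit without control unlesioned library 2 or 3, any of the 3 control libraries at 4dpl or mutant unlesioned library 3, where the log2 fold change was 1.38 to 2.14 and the adjusted p-value 0.0568 to 0.136.

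The unlesioned tissue of the genotypes also stood apart for Dll1, with no overlap and a log2 difference, mutant over control, of 1.98 (standard error 0.50), but over all genes edgeR gave an adjusted p of 0.693 and did not call it. With DESeq2 the same difference was 2.02 (adjusted p = 0.0305) and was called, and in the other alternatives the adjusted p-value ran from 0.153 to 1. The change after lesion in the mutant minus that in the control was -1.39 on the log2 scale (standard error 0.68, edgeR adjusted p = 1), so that a difference between the genotypes' responses was not established. The summed progenitor markers moved with Dll1 in part. They were at 58.5, 65.3 and 77.9 CPM in the control unlesioned libraries and 143, 182 and 318 CPM at 4dpl. In the mutant they were at 242, 85.0 and 102 CPM unlesioned and 216, 140 and 187 CPM at 4dpl. The 3 lowest libraries were thus the same for Dll1 and for these markers, while the library highest for the markers, the third control library at 4dpl, was not the highest for Dll1, and the part of cell composition in the values of Dll1 was not tested. The exons of Dll1 share 867 bases with A930024N18Rik on the other strand, which had 1 to 51 counts.

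**Figure D2:**
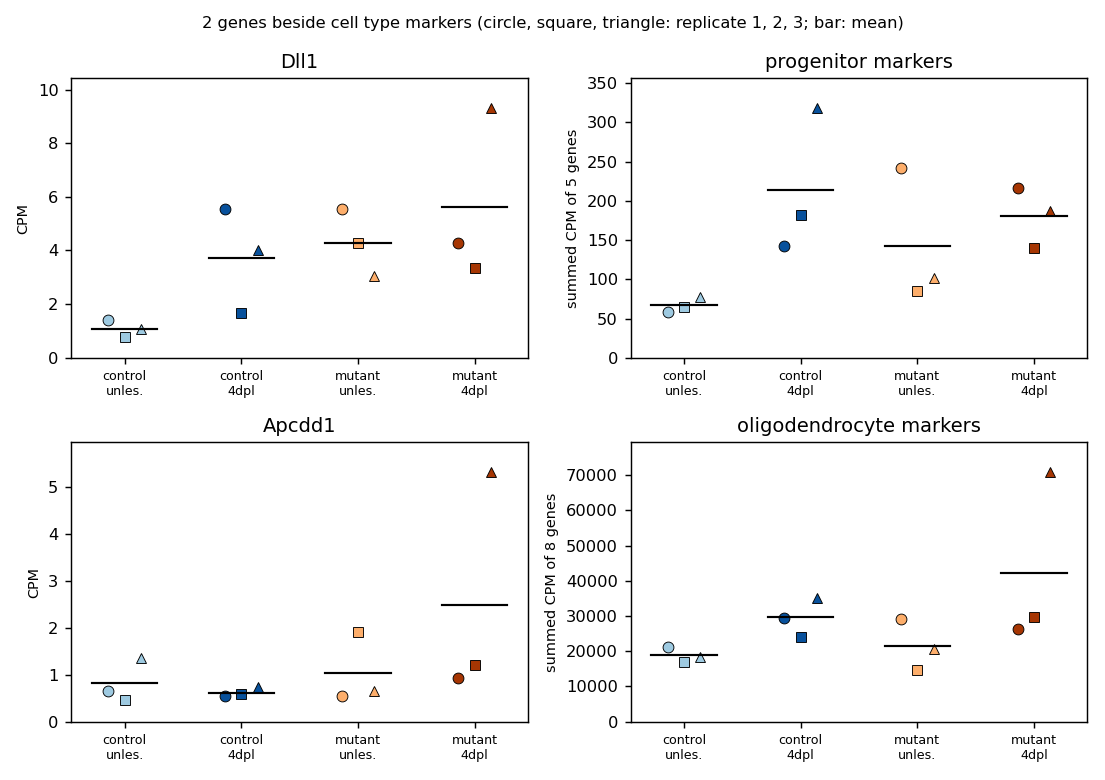
Dll1 and Apcdd1 (left, CPM) beside the summed CPM of 5 progenitor markers and of 8 oligodendrocyte markers (right) in the 12 libraries, with symbols for replicates 1, 2 and 3 and bars for group means. Dll1 and the progenitor markers are lowest in the 3 control unlesioned libraries, and Apcdd1 and the oligodendrocyte markers are highest in the third mutant library at 4dpl.

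Jag1, on chromosome 2 from 137081456 to 137116644, encodes a Jagged ligand of Notch found on astrocytes and vessel cells among others. Control libraries had Jag1 at 6.89, 3.40 and 2.36 CPM unlesioned and 8.01, 6.88 and 5.85 CPM at 4dpl. In the mutant it was at 2.73, 4.86 and 3.60 CPM unlesioned and 8.09, 8.94 and 4.66 CPM at 4dpl. In each genotype a single library of one condition reached into the range of the other, the first unlesioned one in the control and the third lesioned one in the mutant. The log2 fold change of Jag1 was 0.71 (standard error 0.40, edgeR adjusted p = 0.216) in control tissue and 0.95 (standard error 0.40, edgeR adjusted p = 0.121) in the mutant, neither of them called. Averaged over genotypes it was 0.83 (standard error 0.28, edgeR adjusted p = 0.0316), and its unadjusted edgeR p of 0.0106 came from the same model. It passed the adjusted threshold and just missed the unadjusted one. Without the first control unlesioned library, the one nearest to the lesioned libraries over all genes, Jag1 was called in the control (log2 fold change 1.26, edgeR adjusted p = 0.0312) and averaged over genotypes (1.11, edgeR adjusted p = 0.00450). The astrocyte markers summed to 192 to 216 CPM in the control unlesioned libraries and 324 to 603 at 4dpl, and in the mutant to 230 to 293 and 331 to 613 CPM, and their part in the values of Jag1 was not tested.

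The Notch target genes gave 0 calls in each comparison, and their directions differed. Hes1, the repressor most widely induced by Notch, lies on chromosome 16 from 30064384 to 30067796. Its level in the control was 5.17, 5.23 and 5.04 CPM unlesioned and 3.08, 4.30 and 5.41 CPM at 4dpl. In the mutant Hes1 was at 4.59, 9.60 and 4.94 CPM unlesioned and 6.30, 5.02 and 9.30 CPM at 4dpl. The control unlesioned libraries were nearly identical, and the 2 highest libraries were mutant ones, 1 of each condition. The log2 fold change of Hes1 after lesion was -0.27 (standard error 0.35) in control tissue and 0.11 (standard error 0.35) in the mutant, and the latter was -0.17 without the third mutant library at 4dpl and 0.53 without the second mutant unlesioned library. That last library, the highest for Hes1, was also the highest for the ependymal markers, at 232 CPM where the other 11 had at most 135 CPM.

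Hey1, a related repressor on chromosome 3 from 8663359 to 8667256, known from vessels and from Notch signalling, had its lowest levels in the control unlesioned group. Hey1 was at 1.60, 1.57 and 2.11 CPM in the control unlesioned libraries and 3.29, 2.20 and 4.15 CPM at 4dpl. In the mutant Hey1 was at 2.78, 3.04 and 2.60 CPM unlesioned and 3.43, 2.23 and 6.94 CPM at 4dpl. As for Dll1, the control unlesioned libraries lay below those of the control lesion and below those of the mutant unlesioned, while the mutant groups overlapped. For Hey1 the log2 fold change was 0.87 (standard error 0.41, edgeR adjusted p = 0.152) in the control, 0.58 (standard error 0.41, edgeR adjusted p = 0.309) in the mutant and 0.72 (standard error 0.29, edgeR adjusted p = 0.0572) averaged. In the mutant it was 0.01 without the third library at 4dpl, and averaged it was called, at 0.88 (edgeR adjusted p = 0.0266), without the second mutant library at 4dpl. Of the 10 genes, 2 had control groups that did not overlap between conditions, Dll1 and Hey1, both higher at 4dpl. Of all genes tested 16.5% had control groups apart with the lesion higher and 21.4% with the lesion lower, and 5.12% were called higher. Summed endothelial markers were at 26.1 to 46.7 CPM in the control lesion and 37.9 to 42.2 CPM in the control unlesioned libraries.

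Hes5 is the Hes gene most typical of neural precursors and astrocytes, and in this tissue it was close to the limit of counting, with 2 to 19 counts per library. In the control it had 12, 17 and 7 counts unlesioned and 4, 5 and 12 counts at 4dpl. In the mutant Hes5 had 11, 19 and 15 counts unlesioned and 3, 2 and 6 counts at 4dpl. All 3 mutant lesioned libraries lay below the 3 mutant unlesioned ones. Of the 10 genes, 1 thus had mutant groups that did not overlap, while of all genes tested 23.2% had mutant groups apart with the lesion lower and 18.8% with the lesion higher, and 0.113% were called lower. In CPM the mutant means were 0.300 ± 0.0843 (SD, n = 3) unlesioned and 0.0766 ± 0.0281 (SD, n = 3) at 4dpl, a log2 fold change of -1.91 (standard error 0.83, edgeR adjusted p = 0.127). In the control the log2 fold change was -0.75 (standard error 0.79, edgeR adjusted p = 0.504) and averaged over genotypes -1.33 (standard error 0.57, edgeR adjusted p = 0.0737). The astrocyte markers, summed, were higher at 4dpl in both genotypes while the counts of Hes5 were not, and this comparison was not tested. Gm20421, on the other strand, shares 433 exonic bases with Hes5 and had at most 3 counts.

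Promoter sequences of RefSeq on GRCm38.p6 were matched by symbol for 7 of the 10 genes, and the 250 bases before each start site were searched on both strands for TGGGAA, the core letters bound by RBPJ, and for CTTTGAT and CTTTGAA, the letters bound by TCF and LEF factors, which share their first 6 letters and cannot overlap at one site. The upstream window of Hes5, chr4:154960673-154960922 on the plus strand, held 2 matches to the RBPJ letters, one on each strand, and is shown for them, with the matches in capitals.
Hes5: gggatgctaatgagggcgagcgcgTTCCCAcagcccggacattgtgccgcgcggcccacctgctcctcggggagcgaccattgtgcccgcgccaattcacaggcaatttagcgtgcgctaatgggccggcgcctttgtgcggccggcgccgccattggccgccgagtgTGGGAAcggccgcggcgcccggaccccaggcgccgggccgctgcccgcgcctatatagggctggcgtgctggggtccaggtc
None of the windows of the other 6 genes held a match to any of the 3 motifs, where 21.6% of 32851 promoter windows held the RBPJ letters, 3.21% held CTTTGAT and 4.46% held CTTTGAA. Dll1 is shown because it was the gene that passed the test, with the window next to the outer of its start sites, chr17:15376933-15377182 on the minus strand. No letters of it are in capitals.
Dll1: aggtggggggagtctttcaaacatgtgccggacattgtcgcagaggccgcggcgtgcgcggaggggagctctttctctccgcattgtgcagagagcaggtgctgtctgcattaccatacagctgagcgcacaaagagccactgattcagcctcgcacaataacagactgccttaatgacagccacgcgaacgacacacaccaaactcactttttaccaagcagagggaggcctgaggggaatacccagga
The window of Hes5 was 71.6% G and C with 32 CG dinucleotides and that of Dll1 56.0% with 13, where the medians over all windows were 52.4% and 6. A match describes letters only, and the windows say nothing about which factor was bound.

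Axin2, on chromosome 11 from 108920349 to 108950783, is the feedback inhibitor that is most often read as a sign of Wnt signalling. Its control levels were 0.958, 1.87 and 1.93 CPM unlesioned and 1.15, 0.780 and 0.967 CPM at 4dpl, from 42 to 99 counts. In the mutant it was at 2.10, 1.11 and 1.52 CPM unlesioned and 1.75, 1.40 and 1.73 CPM at 4dpl, from 52 to 114 counts. The control groups overlapped through the first unlesioned library, the mutant groups overlapped fully, and at 4dpl the mutant libraries lay above the control ones. On the log2 scale the change of Axin2 after lesion was -0.71 (standard error 0.40, edgeR adjusted p = 0.219) in control tissue and 0.05 (standard error 0.40, edgeR adjusted p = 0.944) in the mutant, the latter -0.08 with RLE size factors. At 4dpl the log2 difference of mutant over control was 0.75 (standard error 0.40, edgeR adjusted p = 0.798), and the change in the mutant minus that in the control was 0.76 (standard error 0.57, edgeR adjusted p = 1).

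Apcdd1, which encodes a membrane protein that binds Wnt and its receptors and inhibits the pathway, had its highest level in 1 mutant library. Apcdd1 was at 0.657, 0.467 and 1.37 CPM in the control unlesioned libraries and 0.542, 0.590 and 0.737 CPM at 4dpl, from 22 to 70 counts. In the mutant it was at 0.553, 1.91 and 0.657 CPM unlesioned and 0.932, 1.21 and 5.32 CPM at 4dpl, from 29 to 296 counts. The mutant lesioned libraries lay above the control lesioned ones, and the third of them was far above every other library. On the log2 scale the change of Apcdd1 after lesion was -0.42 (standard error 0.69) in control tissue and 1.26 (standard error 0.68, edgeR adjusted p = 0.198) in the mutant, the latter 0.04 without that library. At 4dpl the log2 difference of mutant over control was 2.0 (standard error 0.70, edgeR adjusted p = 0.471) with that library and 0.78 (edgeR adjusted p = 1) without it. The same library had the highest sum of oligodendrocyte markers, 70777 CPM, where the other 2 mutant libraries at 4dpl had 26278 and 29593 CPM and those of the control 24171 to 35047 CPM, and it had the highest levels of Dll1 and Hey1 as well. The part of that composition in the level of Apcdd1 was not tested.

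Lef1, on chromosome 3 from 131110471 to 131224356, encodes a nuclear partner of beta-catenin and is itself a Wnt target, with high levels in lymphocytes and endothelium. In the control it was at 6.25, 4.87 and 4.38 CPM unlesioned and 4.77, 3.54 and 2.46 CPM at 4dpl. In the mutant Lef1 was at 4.11, 4.61 and 4.96 CPM unlesioned and 3.71, 4.00 and 4.44 CPM at 4dpl. The lesioned libraries tended to the lower end with an overlap in both genotypes. The log2 fold change was -0.52 (standard error 0.31, edgeR adjusted p = 0.234) in control tissue and -0.17 (standard error 0.31, edgeR adjusted p = 0.704) in the mutant. Averaged over genotypes it was -0.35 (standard error 0.22, edgeR adjusted p = 0.201), and among the 17528 genes with at least 10 counts in every library, where the median of all genes was 0.00 in place of -0.28, it was -0.64 and was called. Lymphocyte markers summed to 224 to 574 CPM in the control unlesioned libraries and 241 to 345 CPM in the control lesioned ones, and to 198 to 258 and 222 to 254 CPM in the mutant, and their part in the values of Lef1 was not tested. The gene Gm43352 on the other strand shares 1208 exonic bases with Lef1 and had at most 22 counts.

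**Figure D3:**
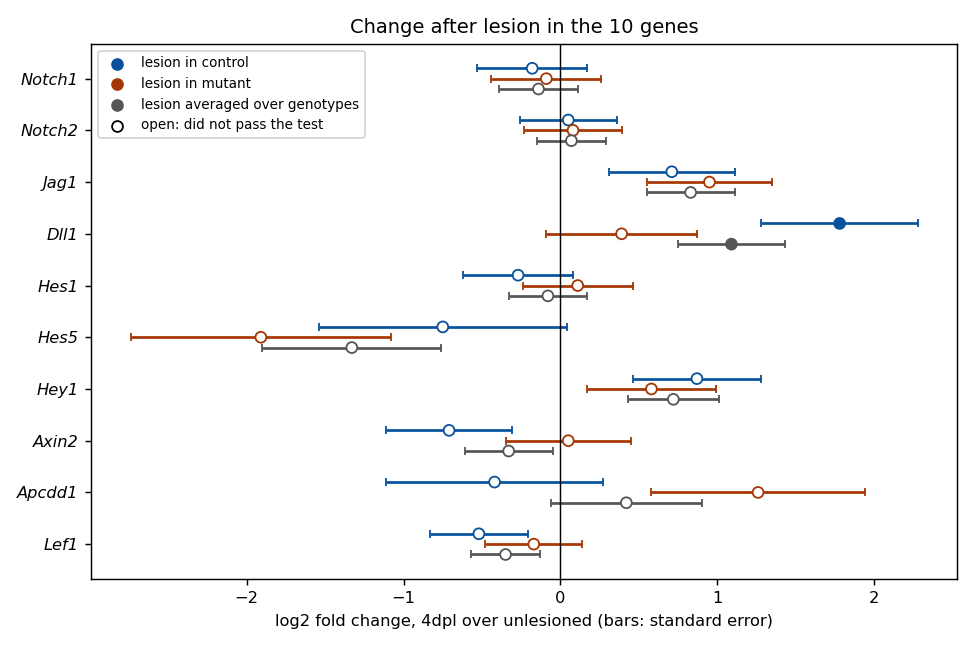
Log2 fold change (4dpl over unlesioned, linear axis) of the 10 genes in the control, in the mutant and averaged over genotypes, with standard errors as bars and filled points for genes that passed the test. Dll1 is filled in the control (1.78) and in the average (1.09), and all other points are open.

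Between the genotypes, 0 of the 10 genes were called in unlesioned tissue, at 4dpl or in the interaction by edgeR's quasi-likelihood test, and of all genes tested 0% were called in each of the 3. At an unadjusted p-value under 0.05 edgeR gave Dll1 unlesioned, Apcdd1 at 4dpl and 0 genes in the interaction. DESeq2 called Dll1 unlesioned, where it called 0.0514% of all genes higher in the mutant, and 0 of the 10 genes in the others, and limma with voom called 0 in each. The groups did not overlap for Dll1 and Hey1 unlesioned, and for Axin2 and Apcdd1 at 4dpl, in each case with the mutant libraries above those of the control. That is 2 of 10 genes in each comparison. Of all genes tested the mutant libraries lay above those of the control without overlap for 4.09% unlesioned and 7.34% at 4dpl, and below them for 6.28% and 5.44%. Hes1 at 4dpl had a log2 difference of 0.69 (standard error 0.35, edgeR adjusted p = 0.771), with ranges that overlapped. For the receptors the genotypes differed by -0.12 to 0.01 on the log2 scale with standard errors of 0.31 to 0.35.

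Per length of exon, in RPKM (CPM divided by the exon length in kilobases), the 10 genes spanned a wide range and kept a partly fixed order. The medians over the 12 libraries were 7.59 for Notch2, 5.61 for Notch1 and 2.51 for Hes1. Below these lay Jag1 at 0.919, Dll1 at 0.869, Hey1 at 0.825 and Lef1 at 0.502. Axin2 at 0.265, Apcdd1 at 0.249 and Hes5 at 0.125 RPKM were the lowest. Notch2 was above Notch1 in 11 of 12 libraries, and Notch1 above Hes1, Hes1 above Jag1 and Lef1 above Axin2 in all 12. The order of the other neighbours was not fixed. Jag1 was above Dll1 in 8 libraries and Dll1 above Hey1 in 5, and Axin2 was above Apcdd1 in 4. Hey1 was above Lef1 in 10 libraries, and Apcdd1 above Hes5 in 10. In RPKM, Dll1 was the gene whose place moved most, from a mean of 0.257 ± 0.0763 (SD, n = 3) in the control unlesioned libraries, close to Axin2 at 0.288 ± 0.0992 (SD, n = 3), to 1.34 ± 0.760 (SD, n = 3) in the mutant lesioned ones, close to Jag1 at 1.24 ± 0.389 (SD, n = 3).

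The other genes of the Notch pathway, 43 listed by role, were all tested. Averaged over genotypes 13 of them rose after lesion and 0 fell, with a median log2 fold change of 0.43. The median of all genes was -0.28, and 14.2% of all genes were called higher. The calls lay among proteases, glycosyltransferases, nuclear effectors and regulators, and 0 of 2 receptors, 6 ligands and 5 targets were called. Of 9 proteases 5 rose, and among them were Psen2, a catalytic subunit of gamma-secretase (log2 fold change 0.90, standard error 0.14, edgeR adjusted p = 0.00257), and Ncstn, a further subunit of that complex (1.07, standard error 0.23, edgeR adjusted p = 0.00545). Of 5 glycosyltransferases, which put sugars on the receptor, 3 rose, among them Poglut1 (1.07, standard error 0.18, edgeR adjusted p = 0.00280) and Mfng (0.87, standard error 0.18, edgeR adjusted p = 0.00478). Of 11 regulators 3 rose, among them the Deltex genes Dtx3 (0.80, standard error 0.15, edgeR adjusted p = 0.00344) and Dtx4 (1.21, standard error 0.23, edgeR adjusted p = 0.00410). Rbpj, the DNA-binding partner of Notch, rose as well (0.65, standard error 0.19, edgeR adjusted p = 0.0184). Psen2 was at 32.0 to 39.4 CPM in the control unlesioned libraries and 59.4 to 74.6 CPM at 4dpl, and in the mutant at 21.5 to 31.5 and 49.7 to 52.0 CPM, with no overlap in either genotype. Gamma-secretase has many substrates and is active in microglia and macrophages, whose markers summed to 13924 to 21799 CPM in the control unlesioned libraries and 29898 to 32740 CPM at 4dpl, and to 15203 to 20720 and 20488 to 33412 CPM in the mutant. Their part in these values was not tested. With RLE size factors 13 rose and 1 fell. Among genes with at least 10 counts in every library 8 of 37 rose and 1 fell, and 4 of 9 proteases rose. The median of the 37 was then 0.19, where that of all genes was 0.00. In the control alone 9 rose and 1 fell, where edgeR called 5.12% of all genes higher and 5.01% lower. In the mutant alone edgeR called 0, with 15 at an unadjusted p-value under 0.05, 6 called by DESeq2 and 12 by voom. For all genes in the mutant, DESeq2 called 4.28% higher and 12.7% lower, and voom 11.2% and 10.6%. The control count of these Notch genes was 0 without control unlesioned library 2 and 17 without control unlesioned library 1. Of all 31109 genes tested 1 and 7110 were called in the control in these fits, and 0 without control library 2 at 4dpl.

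Of 95 other Wnt pathway genes 91 were tested, Wnt9b, Dkk4, Sost and Sp5 being too low. Averaged over genotypes 8 rose and 10 fell, where 14.2% of all genes were called higher and 18.6% lower, both larger shares than in this list. The median log2 fold change was -0.13 where all genes had -0.28, and with RLE size factors 6 rose and 12 fell. Of the 7 Wnt target genes tested 0 were called by edgeR, and 3 had an unadjusted p under 0.05, while DESeq2 called 2 of them lower. By either tool 5 of the 7 log2 fold changes were positive, with a median of 0.25 in edgeR and 0.15 in DESeq2. Ctnnb1, which encodes beta-catenin, a protein of cell junctions as well as of the Wnt pathway, rose by a log2 fold change of 1.36 (standard error 0.24, edgeR adjusted p = 0.00319). It was at 164, 55.6 and 99.0 CPM in the control unlesioned libraries and 373, 286 and 311 CPM at 4dpl, and in the mutant at 160, 92.2 and 106 CPM and 278, 236 and 264 CPM. All 6 lesioned libraries lay above all 6 unlesioned ones. Wls, which carries Wnt proteins to the cell surface (0.80, standard error 0.17, edgeR adjusted p = 0.00543), and the receptors Fzd7 (0.77, standard error 0.19, edgeR adjusted p = 0.00834) and Fzd1 (1.22, standard error 0.30, edgeR adjusted p = 0.00860) rose too. Fzd7 was at 6.48 to 11.4 CPM in the control unlesioned libraries and 10.2 to 14.1 CPM at 4dpl, and in the mutant at 19.9 to 21.1 CPM at 4dpl, above every other library. Lgr6, a receptor for R-spondins, which amplify Wnt signals, fell (-1.83, standard error 0.33, edgeR adjusted p = 0.00338), from 1.66 to 3.12 CPM in the unlesioned libraries to 0.273 to 0.966 CPM at 4dpl. Tcf7l2, the TCF factor of oligodendrocytes, did not pass (0.37, standard error 0.22, edgeR adjusted p = 0.186).

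Of 23 Wnt and R-spondin ligands tested 0 rose and 6 fell, Wnt16 with the smallest p-value (log2 fold change -2.77, standard error 0.58, edgeR adjusted p = 0.00507). In the same comparison, averaged over genotypes, 14.2% of all genes were called higher and 18.6% lower. All 6 ligands were genes of few reads. Wnt16 had 18, 33 and 40 counts in the control unlesioned libraries and 3, 1 and 9 at 4dpl, and none of the 6 exceeded 59 counts in any library or had 10 in every library. Among the 9 ligands with at least 10 counts in every library 2 were called lower and 0 higher, with a median log2 fold change of 0.01. In the control alone 2 Wnt pathway genes rose, Ctnnb1 and Wls, and 3 fell, Lgr6, Wnt16 and Ror1. In the mutant alone edgeR called 0, with 20 at an unadjusted p-value under 0.05, 8 called by DESeq2 and 13 by voom. Among all genes in the mutant DESeq2 called 4.28% higher and 12.7% lower, and voom 11.2% and 10.6%. EdgeR called 5.12% of all genes higher and 5.01% lower in the control. The control count of the Wnt genes was 0 without control unlesioned library 2 and 13 without control unlesioned library 1. In these fits 1 and 7110 of the 31109 genes tested were called in the control.

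**Figure D4:**
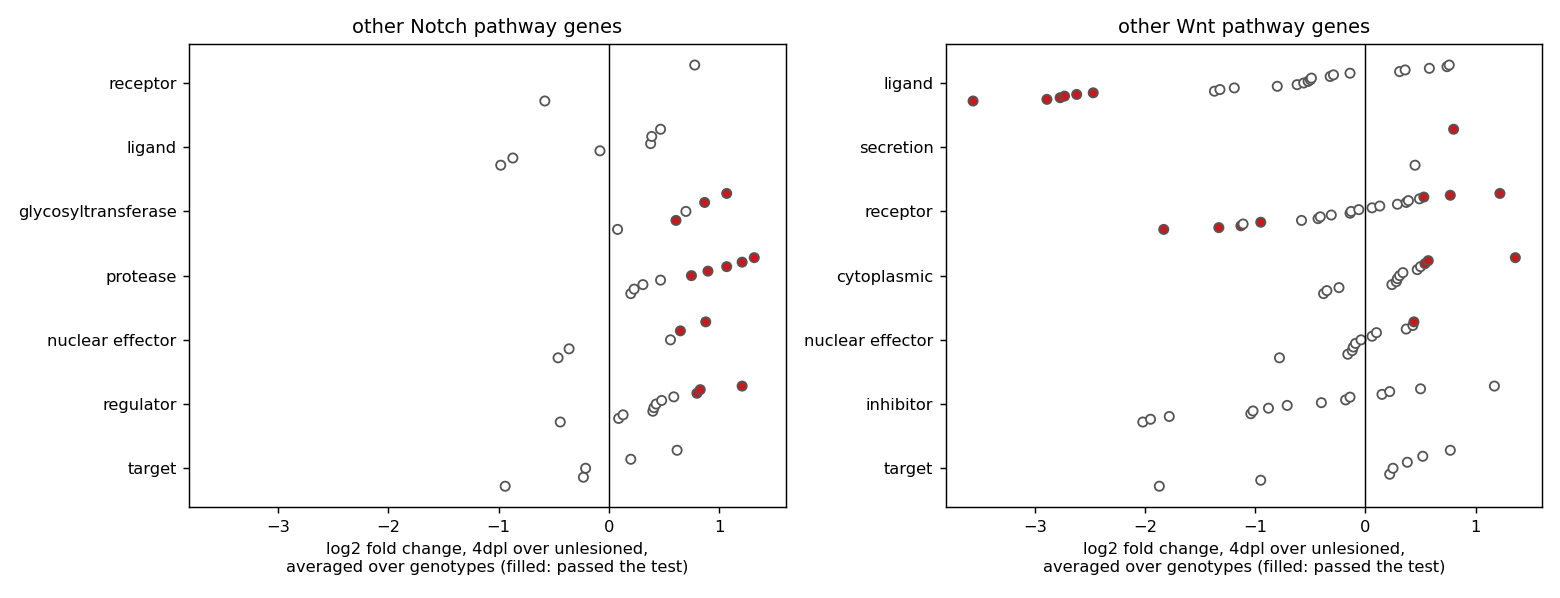
Log2 fold change (4dpl over unlesioned, averaged over genotypes, linear axis) of the other Notch (43) and Wnt (91) pathway genes, 1 point per gene, in rows by role, with filled points for genes that passed the test. In the Notch panel the filled points are all positive and 5 are proteases, and in the Wnt panel the 6 filled ligands are all negative.

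The genes most like 5 of the members in their profile over the 12 libraries were found by the root mean square difference of centred log2 CPM among 13616 genes. Hes1 was nearest to Foxk1 (0.219) and Smarca5 (0.229), Hey1 to 2900011O08Rik (0.205) and Mapk10 (0.206), and Axin2 to Plcd4 (0.224) and Aox1 (0.227). Lef1 was nearest to Cd79a, a B cell gene of the lymphocyte list (0.165), and then to Cmtr1 (0.206). Hes5 had no profile as near, its closest being Gm43628 (0.419) and A130012E19Rik (0.426). For comparison, the standard deviation of the member's own log2 CPM over the 12 libraries was 0.446 for Hes1, 0.59 for Hey1, 0.455 for Axin2, 0.325 for Lef1 and 0.792 for Hes5.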

How the data were processed

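RNA-seq was performed on 12 Percoll-enriched spinal cord preparations, 3 in each of 4 groups set by the labels. The authors deposited raw counts per Ensembl gene, not normalized. The study's methods name BWA and featureCounts on exons of GRCm38, whereas the submitters' processing notes list STAR, DESeq2 1.2.5 and mm10. Strand use in counting is not given in the sources used here, so overlapping antisense genes cannot be told apart.

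Levels were scaled by TMM and the model was fitted with edgeR 4.0.16 under R 4.3.3. Genes passing filterByExpr (31109) entered 1 quasi-likelihood model with a mean per group, and genes were called at a p-value under 0.01 and a Benjamini-Hochberg adjusted p-value under 0.05. Standard errors came from the F statistic. Coordinates and exon lengths, used for RPKM, are those of the deposited tables, and 54723 of 54838 gene IDs matched a symbol. Counting error is small except for genes of few counts, and 3 libraries per group limit the precision.

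Alternatives were DESeq2 1.42.0, limma 3.58.1 with voom and sample weights, edgeR with legacy set to false, RLE size factors, other count filters, replicate blocks, fits to the compared groups and leaving out each library. Fits were tested on simulated counts. The 10 genes, the pathway and marker lists and the tests were chosen with earlier results of these data known. Beside the 10 genes, the text names Rbpj, Tcf7l2, Ctnnb1, Tet1, the 6 called genes of smallest p-value in each pathway list and the 2 nearest profiles of 5 members. Ror1 and the 4 untested Wnt genes were named after their values were seen.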

Additional observations from a re-analysis of the deposited data

How the results depend on the processing

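Leaving out a library in turn, the 10 genes gave 0 to 2 calls in the control and 0 to 2 averaged over genotypes. The other Notch genes gave 0 to 17 calls in the control and 0 to 9 in the mutant. The other Wnt genes gave 0 to 13 in the control, 0 to 9 in the mutant and 9 to 22 averaged. In the control the lowest values came without control unlesioned library 2, among others, and the highest without control unlesioned library 1. Without control library 2 at 4dpl 0 of all genes tested were called in the control, so that these counts were 0 there too. The cause was not tested.

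Among the 10 genes, calls in the control were 2 with voom and 0 with 10 counts in every library, with the replicate block by study number and with only the groups compared. In the mutant voom gave 1. Averaged they were 2 with legacy set to false, without a filter and with the replicate block by label number, and 0 with RLE size factors and with the replicate block by study number. DESeq2 gave 1 between genotypes unlesioned. Of the other Notch genes, control calls were 18 with voom, 5 with 10 counts in every library, 6 with the study block and 3 with only the groups compared; mutant calls were 6 with DESeq2, 12 with voom, 6 with legacy set to false and 2 without a filter, and voom gave 21 averaged. Of the other Wnt genes, control calls were 16 with DESeq2, 16 with voom, 13 with legacy set to false, 1 with the study block and 1 with only the groups compared. Mutant calls were 8, 13, 6 and 1 with DESeq2, voom, legacy set to false and no filter, and averaged calls were 11 with 10 counts in every library and 8 with the study block.

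Small log2 values changed sign. With voom Notch1 was at 0.17 in the control, 0.08 in the mutant, 0.12 averaged and 0.13 between genotypes unlesioned, Notch2 at 0.09 and 0.01 between genotypes unlesioned and at 4dpl, and Jag1 at 0.17 unlesioned. With DESeq2 and RLE size factors Notch1 at 4dpl was -0.03, Notch2 -0.05 in the mutant and -0.03 averaged, Axin2 -0.08 in the mutant and 0.01 unlesioned, and Hes1 in the mutant -0.03 and -0.04. With 10 counts in every library Notch1 unlesioned was 0.01, Notch2 -0.19 in the control, -0.22 in the mutant and -0.20 averaged, and in the mutant Hes1 was -0.23 and Axin2 -0.25. With only the groups compared Notch2, Hes1 and Axin2 in the mutant were -0.10, -0.06 and -0.13. Without a filter Notch1 and Jag1 at 4dpl were -0.07 and -0.01, and Hes1 averaged 0.02. With the replicate block by study number Notch1 was 0.40 in the control and Notch2 -0.20 in the mutant.

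Without 1 library, Notch1 ran from -0.47 to 0.32 in the control, -0.37 to 0.24 in the mutant, -0.28 to 0.11 averaged, -0.40 to 0.42 unlesioned and -0.27 to 0.15 at 4dpl. Notch2 ran from -0.17 to 0.46, -0.09 to 0.27, -0.05 to 0.27, -0.35 to 0.28 and -0.27 to 0.10 in the same order. Jag1 ran from -0.47 to 0.37 unlesioned and -0.12 to 0.30 at 4dpl, Dll1 from -0.18 to 0.66 in the mutant, and Hes1 from -0.17 to 0.53 in the mutant, -0.22 to 0.13 averaged and -0.11 to 0.50 unlesioned. Hey1 ran from -0.18 to 0.69 and Lef1 from -0.05 to 0.43 at 4dpl, and Axin2 from -0.16 to 0.31 in the mutant and -0.28 to 0.19 unlesioned. Apcdd1 ran from -0.70 to 0.14 in the control, -0.19 to 0.81 averaged and -0.46 to 0.89 unlesioned. Of the 600 values of single members with a library left out 535 kept their direction and side of the threshold, and of 395 under the other alternatives 347. The 600 include fits without a library outside the comparison, where the log2 value could hardly change. The difference of Apcdd1 at 4dpl, for example, stayed at 2.0 without any unlesioned library in turn. The 535 are therefore not a measure of stability.

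For libraries with the same replicate number, of the labels or of the study, deviations from the group means correlated by -0.0891 to 0.189. Correlations around means of 3 libraries cannot decide whether such libraries come from the same mouse. The block is therefore shown only as an alternative. Hes5, with 2 to 19 counts, allows large differences only.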
